A study of Mus musculus with 6 samples.

Results

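Elastic fibres give arteries, valves and the connective tissue of the heart their recoil. They consist of a core of crosslinked elastin laid on a scaffold of microfibrils, which are built from fibrillins. Fibulins, the microfibril-associated proteins (MFAPs) and emilins join the core, the scaffold and the cell surface, and fibrillin microfibrils also hold latent TGF-beta in the matrix. The genes described here are Eln (elastin), Fbn1 and Fbn2 (fibrillins), Mfap4 and Mfap5 (microfibril-associated proteins), Fbln1, Fbln2 and Fbln5 (fibulins) and Emilin1 (an emilin). They were taken by gene symbol, and all 9 were found among the 22556 genes of the table. A mean of at least 1 RPKM (a read level divided by transcript length and library size) over the 6 libraries was reached by 8 of them, and Fbn2 stayed below it. None of the 8 passed through a raised group alone, since the lowest of their control means, that of Fbln5, was 3.11 RPKM.

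Expression was measured by RNA sequencing of hearts of wild-type (WT) mice infused with the pressor peptide angiotensin II (Ang II) under the skin from osmotic minipumps at 1000 ng per kg per min. Hearts were taken after 7 or 28 days of infusion, and the control group is labelled as 0 days. Each of the 3 groups held 2 libraries, named here replicate 1 and replicate 2. The labels give no age, sex or sham treatment of the controls, and do not say that the libraries of a group came from separate mice, so the p-values measure the spread between these libraries, which may be technical. RPKM divides by transcript length, which allows a rough comparison of levels between genes, though the lengths used here are unknown. In a whole heart, more cells of a type and more RNA per cell cannot be told apart.

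Across the series, depth relative to control replicate 1 lay between 0.89 and 1.17, as read from the most common ratio of low values. Cardiomyocyte markers (8 genes, summed level 34000 to 45800 RPKM) were high in every library, as the heart label implies. The 4 atrial markers set the control libraries apart from each other. The level of Nppa was 215 RPKM in control replicate 1 and between 1605 (control replicate 2) and 3040 in the other 5 libraries. Myl4, Myl7 and Sln were at 32.4, 52.5 and 20.2 RPKM in control replicate 1, near their 7 day levels of 12.2 to 66.2, and at 473, 646 and 293 in control replicate 2, the highest of the 6 libraries. At 28 days Myl4 was at 262.7 and 150.5 RPKM, Myl7 at 341 and 181.6 and Sln at 162.9 and 55.1. These lay above both 7 day libraries, as in 9.12% of all tested genes, and none passed in that comparison. The part of atrial tissue in the changes from 7 to 28 days was not tested. Where leaving out either control ends a call of the 9 genes, this is given beside it. Some markers of other cell types differed between the groups. The summed level of 10 fibroblast markers was 964 and 989 RPKM in the controls, 1360 in both 7 day libraries and 1050 and 815 at 28 days. Most of the control sum came from Gsn (488.5 and 508.2 RPKM) and Dcn (316.2 and 313.3 RPKM). For 9 macrophage markers the summed level was 225 and 214 RPKM in the controls, 361 and 426 at 7 days and 210 and 160 at 28 days. No marker of either list was at 0 in all libraries. Of the 10 fibroblast markers 5, Col1a1, Col1a2, Col3a1, Lum and Dpt, passed as higher at 7 days, beside 13.2% of all tested genes. Pdgfra, Tcf21, Dcn and Ddr2, with log2 changes between 0.11 and 0.32, did not pass, nor did Gsn at -0.30. Without control replicate 1 or without either 7 day library 4 of the 10 passed, Dpt being lost. Of the 9 macrophage markers 8 passed as higher at 7 days, beside the same 13.2%. That count was 2 without either control, 5 without 7 day replicate 1, 0 without 7 day replicate 2, 3 with median ratio scaling and 4 with quantile normalization. The part of these cell types in the changes below was not tested.

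Promoter sequence was at hand for 5 of the 9 genes (RefSeq, GRCm38.p6), in 7 windows of 250 bases upstream of a start. The bases just after the start were found in an annotated transcript of the gene for Emilin1, Fbln2 and both Fbln1 windows. They were not found for Fbn1 or for either Fbln5 window, so those starts are less certain. The windows of Fbln1 and Fbln5 printed here are the ones that lay outside annotated exons, and they are shown because both fibulins rose at 7 days and their windows differ in composition. Capitals mark matches on either strand, to GGGCGG (an Sp1 motif) in Fbln5 and to CAGACA (a SMAD motif) in Fbln1.
Fbln1, chr15:85205699-85205948, plus strand: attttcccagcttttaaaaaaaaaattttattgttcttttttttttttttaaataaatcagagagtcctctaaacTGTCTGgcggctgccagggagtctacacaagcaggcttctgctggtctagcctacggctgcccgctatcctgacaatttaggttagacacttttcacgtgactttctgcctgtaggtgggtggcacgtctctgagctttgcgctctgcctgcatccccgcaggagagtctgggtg
Fbln5, chr12:101819120-101819369, minus strand: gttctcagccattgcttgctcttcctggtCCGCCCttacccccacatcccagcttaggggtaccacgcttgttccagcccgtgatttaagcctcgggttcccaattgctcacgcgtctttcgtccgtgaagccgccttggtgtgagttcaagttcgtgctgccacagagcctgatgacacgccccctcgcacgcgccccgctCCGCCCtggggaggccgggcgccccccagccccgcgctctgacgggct
The Fbln1 window was 46.4% G and C with 7 CpG, and the Fbln5 window 65.2% with 21 CpG, against medians of 52.4% and 6 over 32851 windows of the same length. The SMAD letters were found once in the Fbln1 window shown, and 17.1% of all windows held them. The Sp1 letters were found 2 times in the Fbln5 window and once each in the Fbn1 and Fbln2 windows, and 32.7% of all windows held them. The Emilin1 window, the second Fbln5 window and the second Fbln1 window held 1 SMAD match each, and the second Fbln1 window also 1 Sp1 match. The Fbln1 windows overlap each other, so their matches are not separate counts. A search on both strands for the AP-1 motif TGANTCA, held by 6.75% of all windows, found it in 0 of the 7 windows. The same search for CATTCC, bound by TEAD factors and held by 12.6% of all windows, found it in 0 of them. The letters TATAAA, held by 12.4% of all windows, were also in 0 of them. A match is a description of letters, not a bound site.

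Elastin, the core protein, was at 9.04 and 12.8 RPKM in the controls, 32.7 and 57.6 RPKM at 7 days, and 14.7 and 21.8 RPKM at 28 days. The groups did not overlap, and the 7 day libraries lay furthest apart of all 9 genes, with replicate 2 at 1.76 times replicate 1. Eln rose at 7 days to 4.14 times the control mean (10.9 ± 2.66 to 45.2 ± 17.6 RPKM, mean ± SD, n = 2; log2 change 1.96, SE 0.30; limma adjusted p = 0.00755). Log2 changes are differences of log2(RPKM + 0.5), which understates changes of low genes, and a call needs a p under 0.05 after Benjamini-Hochberg adjustment across the 11096 genes tested.

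Leaving out control replicate 1 ended the call of Eln at 7 days (limma adjusted p = 0.0561), as did leaving out 7 day replicate 2 (limma adjusted p = 0.052). At 28 days its mean of 18.3 ± 5.02 RPKM lay 1.67 times above the controls and did not pass (log2 change 0.71, SE 0.30; limma adjusted p = 0.225). In each group the library with more Eln was also the one with more Myh11, the myosin of smooth muscle, which was at 2.61 and 3.29 RPKM in the controls, 4.34 and 6.84 at 7 days and 2.69 and 7.43 at 28 days. The same held for the smooth muscle genes Tagln, Cnn1 and Lmod1, so for 4 of the 9 smooth muscle and pericyte markers. It did not hold in every group for Acta2, Smtn, Rgs5, Cspg4 and Kcnj8, and Acta2 was at 149 and 81 RPKM in 7 day replicates 1 and 2. For Eln, Myh11, Tagln, Cnn1 and Lmod1 the higher library was replicate 2 in each group. That order was not particular to them, since it also held for the members Fbn2, Mfap4, Fbln1 and Emilin1. It did not hold in every group for Fbn1, Mfap5, Fbln2 and Fbln5. Its share over all tested genes was not counted. The summed level of all 9 smooth muscle and pericyte markers was 208 and 220 RPKM in the controls. It was 317 and 279 at 7 days and 202 and 224 at 28 days, and no marker was at 0 in all libraries. At 7 days 2 of 8 tested markers of that list, Acta2 and Tagln, passed as higher, beside 13.2% of all tested genes. Both calls were lost without either control and without 7 day replicate 1, and that of Tagln without 7 day replicate 2. With only the 2 groups fitted, or without either 28 day library, 4 of the 8 passed. The part of these cells in the Eln values was not tested.

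Fbn1, the main fibrillin of adult microfibrils, was at 4.33 and 5.65 RPKM in the controls. It was at 22.6 and 25.2 RPKM at 7 days and at 10.5 and 8.6 RPKM at 28 days. The lowest 7 day library thus lay above every other library, and both 28 day libraries above both controls. The rise at 7 days was 4.79-fold (log2 change 2.16, SE 0.16; limma adjusted p = 0.000616) and passed without any single library. At 28 days Fbn1 was still 1.91-fold above the controls (log2 change 0.88, SE 0.16; limma adjusted p = 0.0313). That call was kept without 28 day replicate 2 and lost without any other single library, with limma adjusted p between 0.0631 without control replicate 2 and 0.223 without control replicate 1.

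Fbn2, the fibrillin best known from development, was the lowest of the 9 genes in every library. It was at 0.0873 and 0.0901 RPKM in the controls, 0.443 and 0.606 at 7 days and 0.236 and 0.278 at 28 days. The groups did not overlap, and the ratio of means was 5.91 at 7 days, higher than for any of the other members. Fbn2 was not tested in the fit over genes with at least 1 RPKM. Without that filter its log2 change at 7 days was 0.79 (SE 0.10; limma adjusted p = 0.0184), compressed by the added 0.5, and its log2 change at 28 days was 0.36 (limma adjusted p = 0.185).

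Mfap4 encodes a fibrinogen-related protein that binds microfibrils and collagen, and Mfap5 a small glycoprotein that binds fibrillins. Mfap4 was at 12.7 and 13.5 RPKM in the controls, 62.8 and 68.9 at 7 days, and 16.7 and 21.3 at 28 days. Its 7 day change was the largest of the 8 tested genes on the log2 scale (5.03-fold; log2 change 2.29, SE 0.13; limma adjusted p = 0.000391). At 28 days Mfap4 had come down to 1.45 times the controls, which did not pass (log2 change 0.51, SE 0.13; limma adjusted p = 0.0824) but did without 28 day replicate 1 (limma adjusted p = 0.0395).

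Mfap5 was at 13.3 and 16.8 RPKM in the controls. Its replicates agreed closely under infusion, at 58.3 and 58.0 RPKM at 7 days and 27.0 and 27.3 RPKM at 28 days. It rose 3.86-fold at 7 days (log2 change 1.92, SE 0.12; limma adjusted p = 0.00048) and was 1.80-fold above the controls at 28 days (log2 change 0.84, SE 0.12; limma adjusted p = 0.0189). Without control replicate 1 the 28 day call was lost (log2 change 0.68; limma adjusted p = 0.155). The pair changed order over the infusion. Mfap4 lay above Mfap5 in both 7 day libraries and below it in both 28 day libraries, and below it in each control library.

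Emilin1, a glycoprotein at the border of elastin and microfibrils, was at 4.75 and 5.09 RPKM in the controls, 14.04 and 15.96 at 7 days, and 7.39 and 8.15 at 28 days. The libraries of each group lay close together and the groups were apart. It rose 3.05-fold at 7 days (log2 change 1.51, SE 0.12; limma adjusted p = 0.000848) and 1.58-fold at 28 days (log2 change 0.61, SE 0.12; limma adjusted p = 0.0383). The 28 day call was lost without any single library, with limma adjusted p from 0.053 without 28 day replicate 1 to 0.282 without control replicate 1.

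The 3 fibulins had the smallest log2 changes of the tested members at 7 days. Fbln2, which binds elastin and fibrillin, was at 20.6 and 18.6 RPKM in the controls, 40.8 and 46.8 at 7 days, and 25.01 and 24.59 at 28 days. It was the highest of the 9 genes in the controls and rose 2.23-fold at 7 days (log2 change 1.14, SE 0.11; limma adjusted p = 0.00168). Fbln5, which binds elastin and cell-surface integrins and is needed for elastic fibre assembly, was at 3.17 and 3.05 RPKM in the controls, 6.65 and 7.61 at 7 days, and 3.62 and 4.37 at 28 days. Its 7 day rise was 2.29-fold (log2 change 1.08, SE 0.13; limma adjusted p = 0.00377).

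Fbln1, a fibulin of basement membranes and elastic fibres, was at 12.9 and 15.5 RPKM in the controls, 22.6 and 28.6 at 7 days, and 17.3 and 18.2 at 28 days. It had the smallest 7 day change of the tested genes (1.80-fold; log2 change 0.83, SE 0.15; limma adjusted p = 0.0127). Leaving out control replicate 1 ended that call (limma adjusted p = 0.104), as did leaving out 7 day replicate 2 (limma adjusted p = 0.0806). At 28 days Fbln1, Fbln2 and Fbln5 were 1.25, 1.26 and 1.29 times the controls, and their log2 changes of 0.32, 0.33 and 0.31 did not pass (limma adjusted p = 0.255, 0.146 and 0.232).

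**Figure D1:**
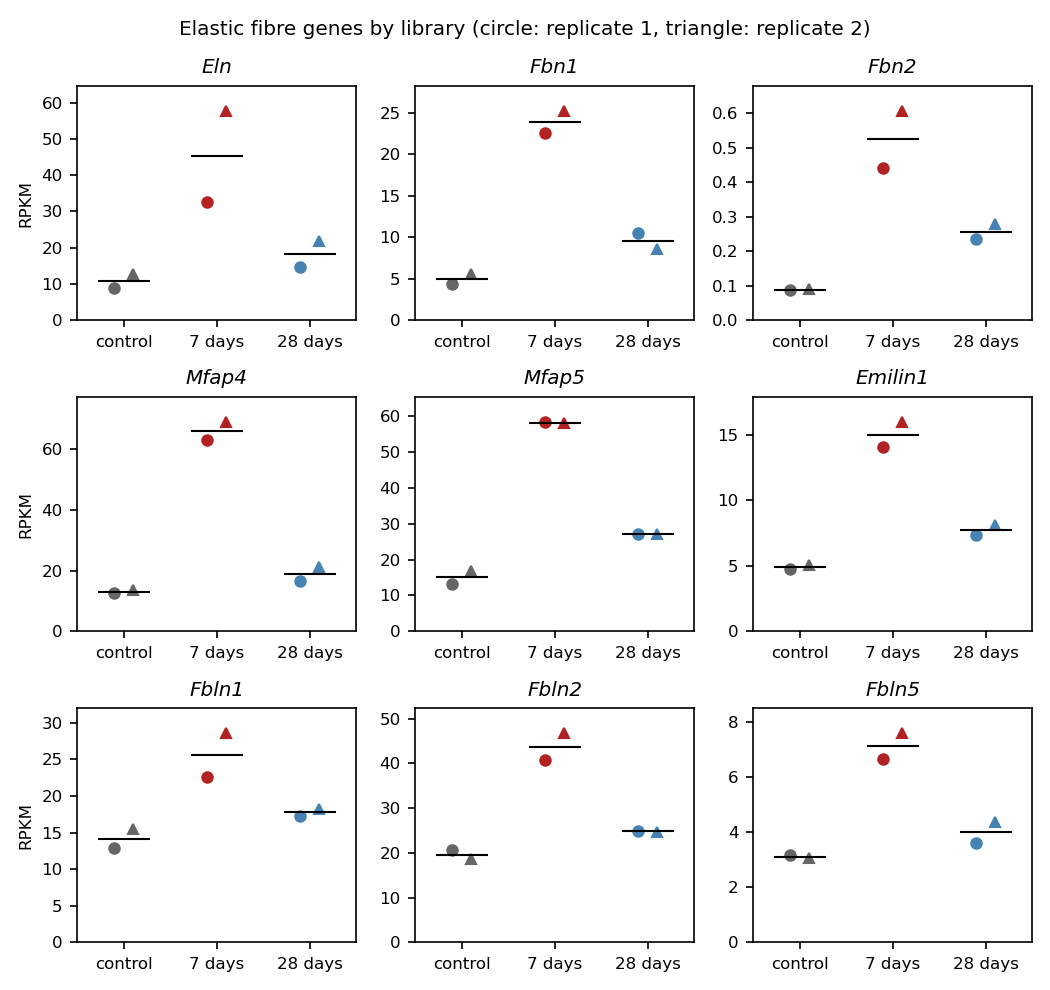
RPKM of each of the 9 genes (vertical axes, each from 0) in the control, 7 day and 28 day groups. Circles are replicate 1, triangles replicate 2 and lines the mean of 2 libraries. In each panel both 7 day libraries lie above both 28 day libraries, which lie above both controls.

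Taking the genes as a group, at 7 days 8 of 8 tested members passed as higher than the controls. Of all tested genes 15.4% passed in either direction, 13.2% as higher and 2.27% as lower. These shares also stand beside the 7 day counts of the related lists below. The members and lists were chosen with earlier results of these data known, so their counts here and below are descriptive. Of the genes that passed at 7 days, 85.3% were higher with the values as deposited, 61.2% with median ratio scaling and 57.1% with quantile normalization. The members' median log2 change was 1.72, beside 0.14 for all tested genes. Those scalings moved the median of all genes by -0.15 and -0.17, and the members' medians under them were 1.55 and 1.57. All 8 passed under either scaling. Without control replicate 1 or without 7 day replicate 2, 6 of 8 passed, the other members being Eln and Fbln1.

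At 28 days 3 of 8 tested members, Fbn1, Mfap5 and Emilin1, passed as higher than the controls, and none passed as lower. Of all tested genes 4.41% passed in either direction, 2.87% as higher and 1.54% as lower. These shares also stand beside the 28 day counts of the related lists below. An unadjusted p under 0.05 was reached by 6 of the 8, and by 22.2% of all tested genes. The median log2 change was 0.56, beside 0.01 for all genes. The count of 3 was 0 without control replicate 1, 1 without control replicate 2 and 1 without either 7 day library, where Mfap5 was the member that passed. It was also 1 when only the control and 28 day groups were fitted, and 0 without the filter on low values. With the replicate number as a block Eln also passed (limma adjusted p = 0.0406).

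The comparison of 28 with 7 days tests whether the 2 infusion times differ. Of 8 tested members 6 were lower at 28 days, while of all tested genes 4.67% passed in either direction, 4.26% as lower and 0.406% as higher. Of these calls 8.69% were of higher genes, a share of 22.8% with median ratio scaling and 20.8% with quantile normalization. Mfap4 fell the most, by 1.77 on the log2 scale (SE 0.13; limma adjusted p = 0.00264), and its 28 day mean was 3.46-fold below the 7 day mean. It was the member that passed without any single library. Fbn1 fell by 1.29 (SE 0.16; limma adjusted p = 0.00895) and Mfap5 by 1.09 (SE 0.12; limma adjusted p = 0.00822). Both of these calls were lost without either 7 day library, with limma adjusted p from 0.0546 to 0.101 for Fbn1 and from 0.0546 to 0.0791 for Mfap5.

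Emilin1 fell by 0.91, Fbln2 by 0.80 and Fbln5 by 0.76 from 7 to 28 days (limma adjusted p = 0.0111, 0.0134 and 0.0275). The calls of Emilin1 and Fbln2 were lost without 7 day replicate 2 (limma adjusted p = 0.103 for each). That of Fbln5 was kept without 28 day replicate 2 and lost without any other single library, with limma adjusted p up to 0.183, and also under median ratio scaling (limma adjusted p = 0.0578) and quantile normalization (limma adjusted p = 0.0622). Eln had a log2 change of -1.25 with an SE of 0.30 (limma adjusted p = 0.0666), and passed with the replicate number as a block (limma adjusted p = 0.00949). For Fbln1 the log2 change was -0.51 (limma adjusted p = 0.105). The count of 6 was 3 without 7 day replicate 1 and 1 without 7 day replicate 2. The 7 and 28 day changes share the control libraries, so they are given side by side and not as 2 independent results.

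**Figure D2:**
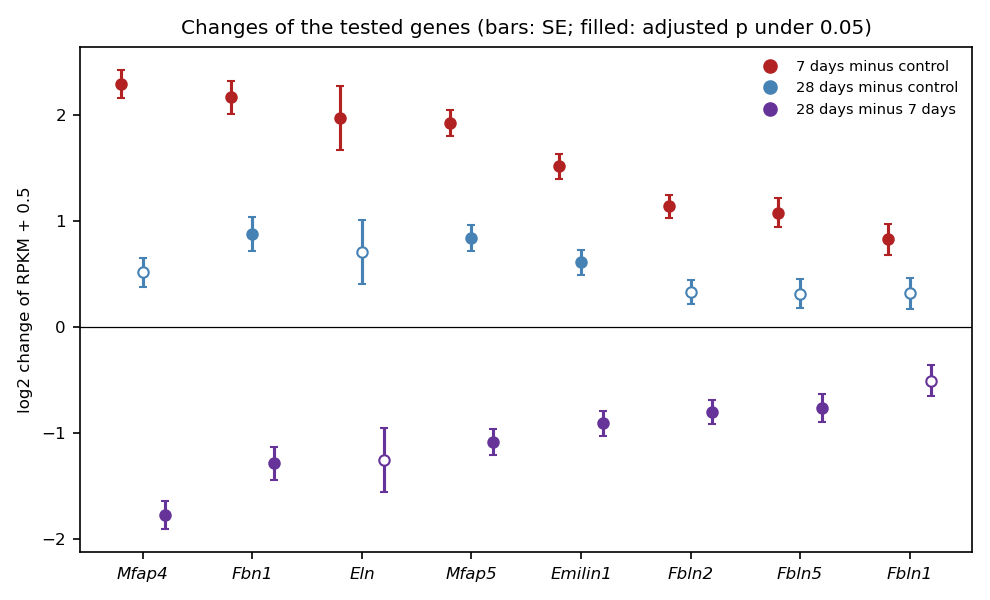
Log2 change of RPKM + 0.5 (vertical axis) for the 8 tested genes, with SE as bars, at 7 days minus control, 28 days minus control and 28 minus 7 days. Filled points passed at an adjusted p under 0.05. All 8 points are filled at 7 days, 3 at 28 days and 6 in the comparison of the infusion times.

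In RPKM, no library of a group overlapped one of another group for any of the 9 genes, and all had the order of control, 28 days, 7 days from low to high. This order without overlap was found for 9.8% of all tested genes. In the single comparisons, 48.6% of tested genes lay above the controls without overlap at 7 days and 16.1% below them. At 28 days 28.8% lay above and 25.8% below. From 7 to 28 days 9.12% went up and 41.2% down without overlap.

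The summed level of the 9 genes was 86 ± 7.22 RPKM in the controls, then 285 ± 34.2 at 7 days and 128 ± 8.5 at 28 days (mean ± SD, n = 2), and its make-up changed. In the controls Fbln2 was highest, at 25.5% and 20.4% of the sum, and the mean of Mfap4 was below those of Mfap5 and Fbln1. At 7 days Mfap4 was highest, at 24.1% and 22.3%, and Mfap5 second. Fbln1 made up 15.9% and 17% of the sum in the controls, 8.68% and 9.25% at 7 days, and 14.1% and 13.5% at 28 days. Fbn1 made up 5.35% and 6.2%, then 8.66% and 8.15%, then 8.57% and 6.39%. The share of Emilin1 moved little, between 5.16% and 6.06% over the 6 libraries.

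**Figure D3:**
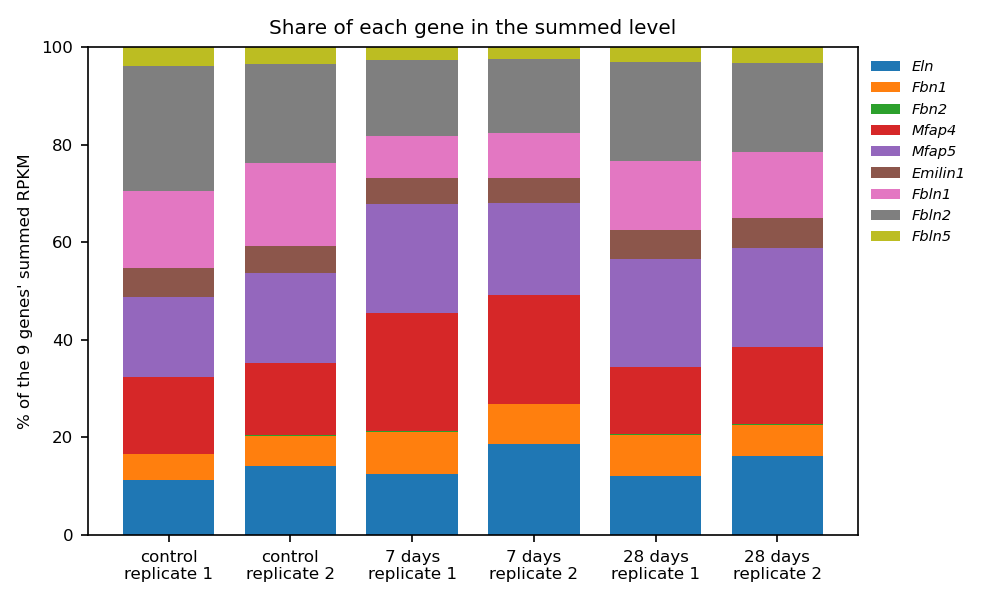
Percent of the summed RPKM of the 9 genes (vertical axis) that each gene made up in each of the 6 libraries (bars). The Mfap4 share is largest in the 7 day libraries, at 24.1% and 22.3%, and the Fbln1 share smallest there, at 8.68% and 9.25%. Fbn2, at 0.0989% to 0.206%, is too thin to see in most bars.

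In the order of mean levels, Mfap5, Fbln1, Mfap4 and Eln followed Fbln2 in the controls, each overlapping the next. Fbn1 and Emilin1 also overlapped each other there. At 7 days the order was Mfap4, Mfap5, Eln, Fbln2, Fbln1, Fbn1, Emilin1, Fbln5 and Fbn2, where Eln overlapped Fbln2 and Fbln1 overlapped Fbn1. At 28 days it was Mfap5, Fbln2, Mfap4, Eln, Fbln1, Fbn1, Emilin1, Fbln5 and Fbn2, where Mfap4 overlapped Eln and Eln overlapped Fbln1. Fbn1 was thus near the level of Emilin1 in the controls and above it, without overlap, at 7 and 28 days. Fbln5 and Fbn2 were the lowest of the genes in all groups.

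Of 10 other listed structural genes of microfibrils and elastic fibres, 9 were in the table and 7 were tested. Beside 13.2% of all tested genes at 7 days, 2 of the 7 were higher, and none was lower. These were Efemp2, which encodes fibulin-4, needed for elastin crosslinking (4.0 ± 0.533 to 11.3 ± 0.626 RPKM, n = 2; log2 change 1.40; limma adjusted p = 0.00173), and Mfap2, a glycoprotein related to that of Mfap5 (1.60 ± 0.291 to 4.0 ± 0.0938 RPKM; log2 change 1.11; limma adjusted p = 0.00512). The Mfap2 call was lost without 7 day replicate 2 (limma adjusted p = 0.0509). Emilin2, an emilin like Emilin1, had a log2 change of -0.12 and Efemp1, a fibulin, of -0.03, and neither passed. The median of the 7 was -0.03, beside 0.14 for all genes. At 28 days 0 of the 7 passed in limma and 2 had an unadjusted p under 0.05, beside the 22.2% of all tested genes.

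Lysyl oxidases crosslink elastin and collagen. Of 5 listed, 4 were tested and 4 rose at 7 days, with a median log2 change of 1.67. Lox rose from 1.03 ± 0.166 to 6.87 ± 1.23 RPKM (log2 change 2.27; limma adjusted p = 0.0018) and Loxl1, which acts on elastin, from 5.93 ± 1.09 to 21.9 ± 1.44 RPKM (log2 change 1.81; limma adjusted p = 0.000964). At 28 days Loxl1 was the lysyl oxidase that passed, at 13.5 ± 1.79 RPKM (log2 change 1.13; limma adjusted p = 0.015), and its call was lost without control replicate 1 (limma adjusted p = 0.109). Lox, Loxl2 and Loxl3 were lower at 28 than at 7 days, by 1.67, 1.23 and 1.41 on the log2 scale (limma adjusted p = 0.0127, 0.00895 and 0.0089). Those calls were lost without 7 day replicate 2 (limma adjusted p = 0.122, 0.0923 and 0.1), and those of Lox and Loxl3 also without 7 day replicate 1 (limma adjusted p = 0.0592 and 0.0503).

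Latent TGF-beta binding proteins sit on fibrillin microfibrils, and some of them, though not all, hold TGF-beta inactive. Of 7 tested genes of these proteins and the TGF-beta ligands, 6 rose at 7 days and 3 at 28 days. The 7 day count was 3 without either control and 2 without 7 day replicate 2. Ltbp2, which binds fibrillin 1, was at 0.459 and 0.438 RPKM in the controls and at 5.26 and 6.72 at 7 days (log2 change 2.77; limma adjusted p = 0.00048). Ltbp2 reached the mean for testing through its infused libraries. Tgfb1 rose by 1.04 at 7 days (limma adjusted p = 0.00468), while the log2 change of Ltbp1, -0.07, missed the threshold. Ltbp2 and Tgfb1 also passed at 28 days (limma adjusted p = 0.0409 and 0.0494). Leaving out control replicate 1 ended these calls (limma adjusted p = 0.225 and 0.271), and so did leaving out any other single library except 28 day replicate 1. Tgfb2 had log2 changes of 1.09 at 7 days and 1.36 at 28 days (limma adjusted p = 0.00817 and 0.0115). Leaving out control replicate 2 ended both calls (limma adjusted p = 0.0579 and 0.064). Leaving out 7 day replicate 2 ended the 7 day call (limma adjusted p = 0.0641), and leaving out control replicate 1 the 28 day call (limma adjusted p = 0.0725).

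Of the ADAMTS and ADAMTS-like genes tied to microfibrils, 5 of 10 were tested. At 7 days 2, Adamtsl2 and Papln, rose, beside 13.2% of all tested genes that passed as higher. Papln lost its call without either control, without 7 day replicate 2 and without the filter on low values. Adamtsl2, whose protein binds fibrillin 1, went from 4.01 ± 0.538 to 12.9 ± 3.35 RPKM (log2 change 1.56; limma adjusted p = 0.00346). Adamts10, which also acts on fibrillin 1, did not pass at 7 days (log2 change 0.30). At 28 days 1 of the 5, Adamtsl2, passed as higher, beside 2.87% of all tested genes. It was at 8.48 ± 0.958 RPKM (log2 change 0.99; limma adjusted p = 0.0357), and that call was lost under 5 of its 15 alternatives.

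Of 12 proteases listed for a possible part in elastin breakdown, 6 were tested, and cutting of elastin was not measured. All 6 rose at 7 days. With median ratio scaling or quantile normalization 5 of the 6 did, the call of Ctsl (log2 change 0.47) being lost. All 6 were lower at 28 than at 7 days. Without 7 day replicate 2 the latter count was 2, Ctss and Mmp2, and the call of Ctsl was lost under 12 of its 15 alternatives. Mmp14, a membrane-bound metalloproteinase, rose from 2.76 ± 0.0283 to 16.5 ± 1.36 RPKM (log2 change 2.38; limma adjusted p = 0.000233), and Ctss, a cysteine elastase of macrophages, from 19.6 ± 1.01 to 52.0 ± 13.3 RPKM (log2 change 1.36; limma adjusted p = 0.00374). The Ctss values moved with the summed level of the macrophage markers given above, whose part was not tested. At 28 days Mmp14 was the protease that passed (log2 change 1.19; limma adjusted p = 0.00563), and its call was lost without control replicate 1 (limma adjusted p = 0.0599). Elane and Mmp7 were listed at 0 in all libraries. Of the 7 tested protease inhibitors 4 rose and 2 fell at 7 days. Without control replicate 1 that was 1 higher and 0 lower, and without control replicate 2 it was 1 higher and 1 lower. Timp1 rose by 3.58 (limma adjusted p = 0.000266), while Timp4 fell by 0.82 (limma adjusted p = 0.00665; 0.0699 without control replicate 1).

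Of all tested genes 13.2% passed as higher at 7 days and 2.87% at 28 days. Among the receptors that bind fibrillins, fibulins or elastin fragments, 4 of 10 tested genes rose at 7 days and 1 at 28 days. The 7 day count was 2 without either control and 2 without 7 day replicate 2. Itga5, the alpha subunit of a fibronectin receptor that also binds fibrillin 1, was at 10.2 ± 0.114 RPKM in the controls, then 20.8 ± 1.98 at 7 days and 21.4 ± 0.78 at 28 days. Its log2 changes were 0.99 at 7 days and 1.04 at 28 days (limma adjusted p = 0.00259 and 0.00661), and its 7 and 28 day libraries overlapped, which those of the 9 members did not. Leaving out either control ended the 28 day call (limma adjusted p = 0.0725 without replicate 1 and 0.0502 without replicate 2).

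**Figure D4:**
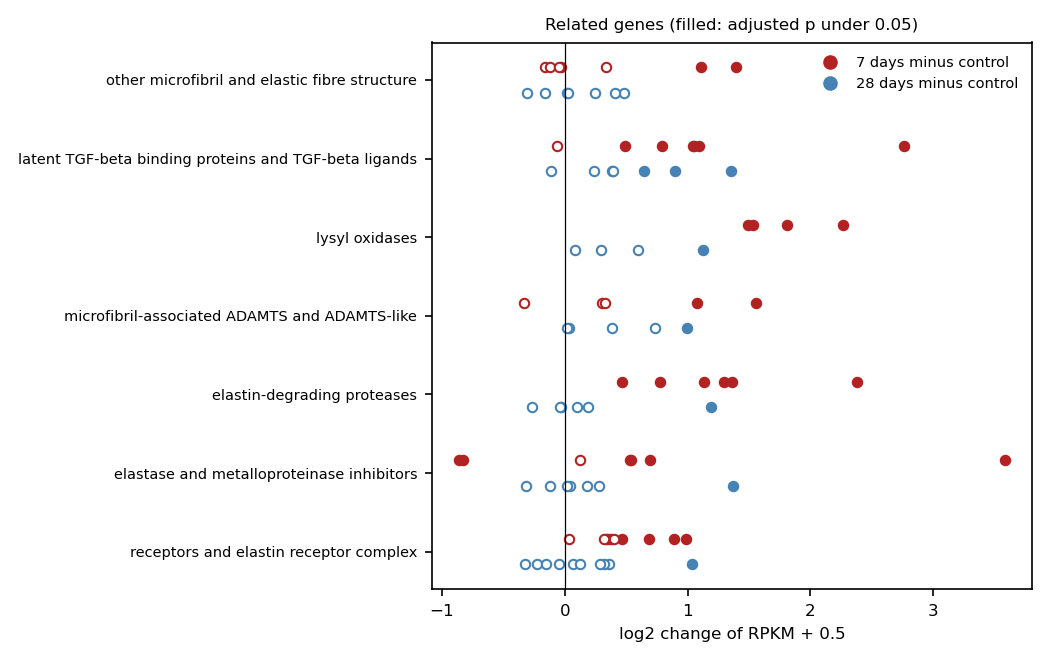
Log2 change of RPKM + 0.5 (horizontal axis) of each tested gene of the 7 related lists (rows), at 7 days (upper points) and 28 days (lower points) minus control. Filled points passed at an adjusted p under 0.05. All 4 lysyl oxidases and all 6 proteases are filled at 7 days, and 1 of each at 28 days.

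Genes of like profile were found as the root mean square difference between log2 values centred on each gene's mean over the 6 libraries. The nearest to the mean profile of the 8 tested members was Emp1, a membrane protein gene, at 18.1 and 19.9 RPKM in the controls, 59.8 and 69.0 at 7 days and 27.8 and 30.0 at 28 days (difference 0.0556 on the log2 scale). Lhfpl2, Wisp2, Adamts2 and Lgals3 came next, with differences between 0.0686 and 0.0852. The genes nearest to Eln were Col18a1 and Comp, a collagen and a cartilage matrix gene, and Col15a1 (0.113, 0.16 and 0.188). Bgn, the proteoglycan biglycan, was second nearest to Fbn1 (0.141), and the collagens Col1a2 and Col1a1 were among the 3 nearest to Mfap4 (0.146 and 0.149). Mxra8 was among the 3 nearest to both Fbln2 and Fbln5 (0.0545 and 0.0459). All these profiles rest on the same 6 libraries.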

How the data were processed

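The deposited values were RPKM, a unit the authors named in the table's column headers. Per the submitters' processing notes, the tools included HTSeq, DESeq2, Bowtie 0.12.9 and TopHat2 2.0.12, and the builds mm8 and mm9, with no role. Which tool computed RPKM, and on which annotation, is not given in the sources used here. No coordinates of the files were used, and promoters are from RefSeq on GRCm38.p6. RPKM were used as deposited on the log2(RPKM + 0.5) scale. Genes with a mean of at least 1 RPKM (11096 of 22556) were fitted in limma 3.58.1 (R 4.3.3) over all 6 libraries, with group means and a mean-variance trend (3 residual and 4.21 prior degrees of freedom). The fit was tested on simulated data. No count model was used, since the file holds no counts, and the number of reads behind each value is unknown. Groups and replicate numbers come from the sample titles. The members and lists were chosen with earlier results of these data known. Named genes were all 9 members, up to 4 passing genes with the largest change in each of 7 related lists, and the genes of nearest profile, of which the text gives a part. Of the list genes, Hmcn2 found no row, and Adgre1 was read under its older symbol Emr1. Alternatives changed the pseudocount, filter, scaling, trend, samples fitted or replicate block, or left out a library. Python 3.11.15 was used for tables and figures.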

Additional observations from a re-analysis of the deposited data

Results flagged for a closer look

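For 6 of the 9 genes the change against control differed between the 2 infusion times by the test of the difference itself, the comparison of 28 with 7 days, in which 4.67% of all tested genes passed. The log2 differences, 28 minus 7 days, were -1.77 for Mfap4, -1.29 for Fbn1, -1.09 for Mfap5, -0.91 for Emilin1 (-0.905 to 3 digits), -0.804 for Fbln2 and -0.765 for Fbln5. In all 6 genes both 28 day libraries lay below both 7 day libraries, as in 41.2% of all tested genes. The 6 were picked by the test on these same libraries, so this is no separate support. Mfap4 passed under each of its 15 alternatives, with limma adjusted p up to 0.042. With 2 libraries a group, outlying libraries could not be tested within a group.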

How the results depend on the processing

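Over the 15 alternatives (14 for Fbln5, which a mean of at least 5 RPKM removes), no log2 change of a tested member reversed. Of 357 such values 317 stayed on the same side of the threshold, 37 lost a call and 3 gained one. At 7 days Fbn1, Mfap4, Mfap5, Emilin1, Fbln2 and Fbln5 passed under every alternative. The count of members that passed at 7 days was 6 to 8 with single libraries left out. At 28 days it was 3, against 0 without the filter on low values, 1 with only the 2 groups fitted and 0 to 2 with single libraries left out. Between 7 and 28 days it was 6, against 1 to 6 with single libraries left out. Where leaving out a library left 1 sample in its group, that sample was taken to have the spread of the remaining groups, and fewer residual degrees of freedom remained. Among all tested genes 1713 passed at 7 days, 392 to 2252 with libraries left out. At 28 days 489 passed, 61 without the filter, 234 with only the 2 groups and 33 to 384 with libraries left out. In the comparison of 28 with 7 days 518 passed, 264 without the filter, 295 with a mean of at least 5 RPKM, 281 with median ratio scaling, 265 with quantile normalization, 287 with only the 2 groups and 27 to 689 with libraries left out. The cause of these shifts was not tested, apart from the fewer libraries or genes fitted. The labels do not say whether same-numbered libraries share anything. Deviations of same-numbered libraries correlated at 0.149 between control and 7 days, and at -0.0193 and -0.0139 for the other pairs of groups. With the replicate block 8, 4 and 7 members passed in the 3 comparisons, and 1496, 359 and 354 of all tested genes. Depth in reads is unknown, so the precision of Fbn2, under 1 RPKM throughout, cannot be given.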
